A study of Homo sapiens with 6 samples.

Results

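The rows examined here are the genes whose symbol is GPR followed by a number, with or without a final letter, together with BAI1, BAI2 and BAI3. They were picked by a rule on names that was set with results for GPR3 known. Of the 20061 rows of the deposited table, 101 met the rule. RNA came from HEYA8 cells, an established line of human ovarian cancer, labelled as a low grade serous carcinoma. All cells carried a lentiviral short hairpin RNA (shRNA) and grew under puromycin, and the labels describe no further treatment. The control group expressed a hairpin against luciferase, a gene that human cells lack (shLuciferase, 3 samples), and the other group a hairpin against the transcription factor ETS1 (shETS1, 3 samples). Whether the 3 samples came from separately grown cultures is not stated, nor is the number of hairpins used against ETS1, so the p-values may measure technical spread alone. Each gene has a single level per group, in FPKM (fragments scaled to transcript length and to sequencing depth), so no spread between samples can be shown, and depth is unknown. Where a pair of levels is given, shLuciferase comes first and shETS1 second. All p- and q-values are those in the authors' deposited table, and "called" means a q-value there of 0.05 or less.

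Most of these genes encode G protein-coupled receptors, proteins that cross the plasma membrane 7 times and pass a signal to G proteins inside the cell. GPR names were given to receptors found by sequence before a ligand was known. The set therefore mixes receptors that raise or lower cyclic AMP (cAMP), receptors that sense acid or lipids, long adhesion receptors that bind matrix or neighbouring cells, and a few transporters and Golgi or lysosomal proteins that were first taken for receptors. The BAI genes, named as brain-specific angiogenesis inhibitors, encode adhesion receptors.

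ETS1 itself, at 41.4 FPKM under the luciferase hairpin, was 56.9% lower under its own hairpin, at 17.9 FPKM (q = 0.00964). Of 9 ovarian carcinoma genes, the epithelial keratins 7, 8 and 18 and the Müllerian lineage factor PAX8 had the highest levels. PAX8 was at 79.7 and 76.8 FPKM and MSLN at 17.9 and 26.5 FPKM. The others were low, with WT1 at 3.58 and 3.13 FPKM, EPCAM at 1.71 and 1.82 FPKM and SOX17 at 1.15 and 2.38 FPKM. MUC16, the CA125 antigen, was at 0.000625 and 0 FPKM. Of 8 leukocyte genes, PTPRC, TYROBP and CD3E were listed at 0 in both groups and 2 were tested, neither of them called. These were CD68, at 48.5 and 47.1 FPKM, and LAPTM5, at 2.82 and 1.36 FPKM (q = 0.0827).

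Among the tested members, GPR3, GPR4 and BAI2 had the widest fold difference between the groups, and the DNA just before their transcription starts is shown because ETS1 acts by binding DNA. The sequences are from RefSeq on GRCh38.p14, each 250 bases that end at the base before the annotated start, read 5′ to 3′ on the strand of the gene. They lie at chr1:27392372-27392621 (plus strand) for GPR3, at chr19:45602213-45602462 (minus strand) for GPR4 and at chr1:31764341-31764590 (minus strand) for BAI2, whose current symbol is ADGRB2. Capitals mark GGAA, the core that ETS factors bind, its reverse complement TTCC, and the cAMP response element TGACGTCA.
GPR3: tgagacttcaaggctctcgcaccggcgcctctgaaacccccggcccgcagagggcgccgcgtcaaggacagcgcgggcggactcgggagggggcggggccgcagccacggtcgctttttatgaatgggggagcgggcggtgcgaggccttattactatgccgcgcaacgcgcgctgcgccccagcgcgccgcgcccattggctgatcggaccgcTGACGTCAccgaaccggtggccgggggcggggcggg
GPR4: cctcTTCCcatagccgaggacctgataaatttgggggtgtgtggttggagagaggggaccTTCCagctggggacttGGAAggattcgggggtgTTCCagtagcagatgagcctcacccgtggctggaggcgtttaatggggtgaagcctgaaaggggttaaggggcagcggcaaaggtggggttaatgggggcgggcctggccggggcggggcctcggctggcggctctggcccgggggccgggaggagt
BAI2: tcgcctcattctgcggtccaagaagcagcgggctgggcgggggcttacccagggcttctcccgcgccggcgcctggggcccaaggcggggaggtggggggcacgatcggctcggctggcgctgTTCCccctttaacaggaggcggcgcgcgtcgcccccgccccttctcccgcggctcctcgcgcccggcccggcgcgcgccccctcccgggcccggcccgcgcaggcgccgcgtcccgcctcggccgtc

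The GPR3 window holds no GGAA on either strand, the GPR4 window holds 4 and the BAI2 window 1. GGAA on either strand occurs in 92.7% of all 35116 RefSeq promoter windows of this length, so its presence separates little. The longer ETS sequence CCGGAAG, searched on both strands and containing GGAA, is in none of the 3 windows. It is in 8.52% of all windows and in 2 of 94 windows of 72 members that matched RefSeq by current or older symbol, those of GPR107 and GPR126. CCGGAAGT, which contains it, is in 3.42% of all windows and in none of the 94. TGACGTCA, a palindrome searched after the GPR3 sequence had been seen, begins 36 bases before the start of GPR3 and 79 bases before that of its relative GPR6, and is not in the window of GPR12, the other relative. It is in 2 of the 94 member windows (2.13%) and in 1.65% of all windows. These matches describe letters only, and binding was not measured.

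Of the 101 members, 34 were tested by the authors and 67 were not. Among the untested, 22 were listed at 0 in both groups, and none exceeded the 0.354 FPKM of GPR35 in shLuciferase. At 1 FPKM or more there were 27 members in shLuciferase and 28 in shETS1, 26 of them in both. This is 26.7% of members in shLuciferase, against 52.9% of all rows of the table. Only tested rows could be called, so the counts below concern the 34 and not the whole set.

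Of the 34 tested members, GPR3 fell and BAI2 rose after ETS1 knockdown. These 2 calls are 5.88% of the tested members, where 0.812% of all 11952 tested rows were called. In the table as a whole 0.268% of tested rows were called lower and 0.544% higher. With 1 call in each direction there was no common direction among the members. At an unadjusted p under 0.05 there were 5 members (GPR3, BAI2, GPR4, GPR161 and GPR180), or 14.7% of those tested, against 6.94% of all tested rows. Results for GPR3 were known when the set was chosen, so this share is a description.

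**Figure D1:**
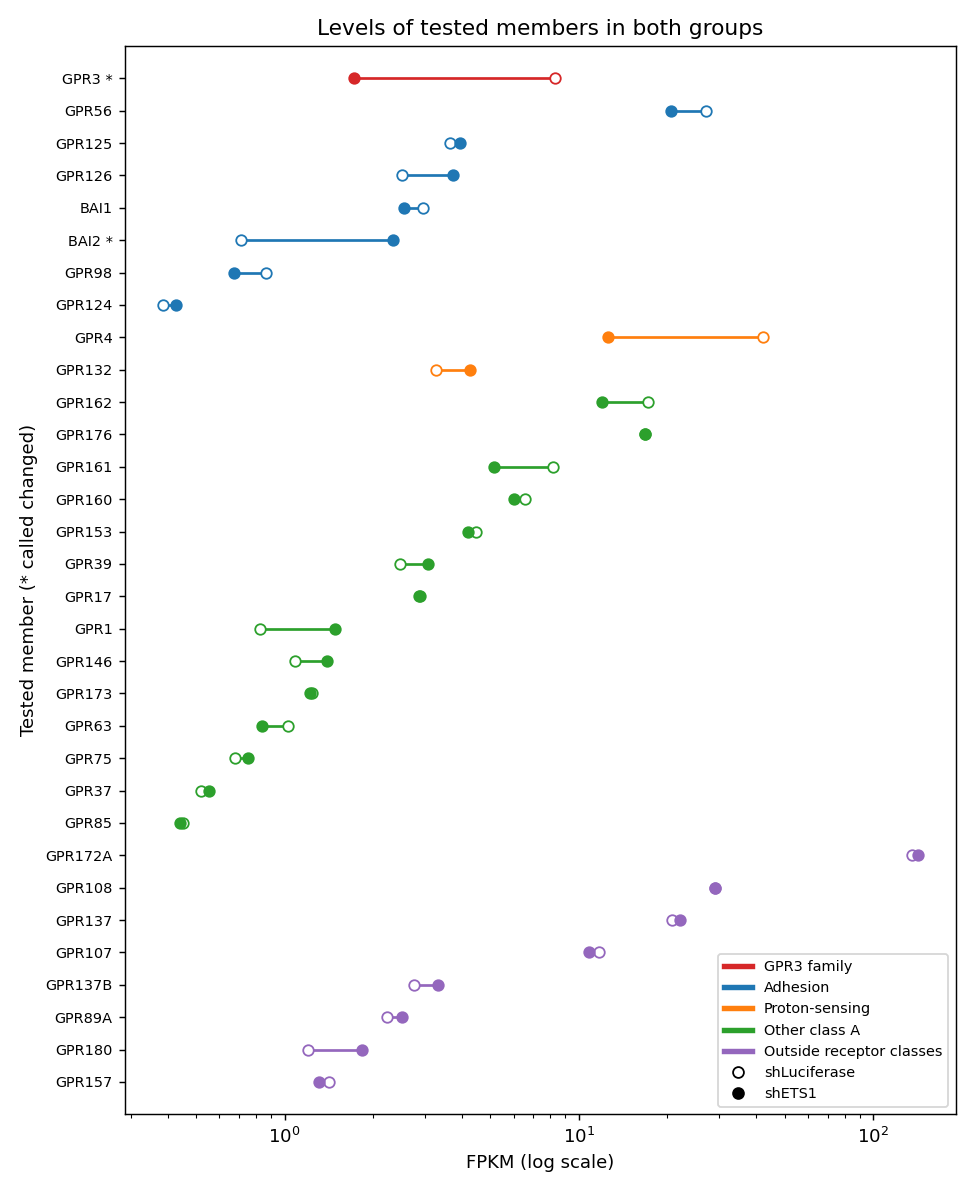
FPKM on a log axis of 32 of the 34 tested members in shLuciferase (open circles) and shETS1 (filled circles), 1 value per group, coloured by role, with asterisks on the called genes. The longest lines are those of GPR3 (8.31 to 1.72 FPKM), GPR4 (42.3 to 12.6 FPKM) and BAI2 (0.709 to 2.33 FPKM), while GPR172A lies far above the others at 135 and 142 FPKM.

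GPR3 belongs to a trio of close relatives, with GPR6 and GPR12, that activate the stimulatory G protein and raise cAMP without an added ligand. GPR3 is best known for holding oocytes in meiotic arrest. Its level was 8.31 FPKM in shLuciferase and 1.72 FPKM in shETS1, 79.3% lower (deposited p = 5e-05, q = 0.00964 in the authors' deposited table). It was the ninth most abundant of the 101 members in the control. Among the 10676 tested rows with a mean of at least 1 FPKM, its log2 ratio of -2.27 ranked 2 from the lowest. Its deposited locus, chromosome 1 from 27719152 to 27722317 (hg19), overlaps that of no other row. GPR6 and GPR12 were listed at 0 in both groups, so GPR3 was the only one of the trio with a level above 0 in the table.

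The adhesion receptors have long extracellular regions that are cut near the membrane, and 7 of the 21 in the set were tested. BAI2, a receptor described mainly in brain, rose 3.28-fold, from 0.709 FPKM in shLuciferase to 2.33 FPKM in shETS1 (p = 5e-05, q = 0.00964 in the authors' deposited table). Its log2 ratio of 1.72 ranked 6 from the highest of the 10676 rows. The locus, chromosome 1 from 32192718 to 32229648 (hg19), overlaps no other row. Because the control level is low, adding 1 FPKM to both levels brings the log2 ratio to 0.96. Of its relatives, BAI1, an engulfment receptor for dying cells, was at 2.96 and 2.55 FPKM, and BAI3, which binds complement-like C1q proteins at synapses, was untested at 0.0405 and 0.0316 FPKM. BAI2 therefore stood below BAI1 in the control and just under it in shETS1.

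GPR56 was the most abundant adhesion receptor of the set. This collagen III receptor, which guides cortical development, was at 26.9 and 20.5 FPKM (q = 0.889). GPR125 was at 3.64 and 3.94 FPKM. GPR126, a receptor needed for myelination by Schwann cells, was at 2.50 and 3.72 FPKM, 1.49-fold higher in shETS1 (q = 0.881). GPR98, the very large receptor mutated in a form of Usher syndrome, was at 0.866 and 0.674 FPKM, and GPR124, a Wnt7 coreceptor of brain vessels, at 0.386 and 0.428 FPKM. None of these 5 was called. The other adhesion members were untested, and of these GPR123 and GPR133 were listed at 0 in both groups.

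Proton-sensing receptors respond to acid outside the cell. GPR4, known from blood vessel endothelium and coupled to cAMP, was the second most abundant member in the control, at 42.3 FPKM, and stood at 12.6 FPKM in shETS1, 70.3% lower. It was not called (p = 0.0008, q = 0.0759 in the authors' deposited table). At a q-value of at most 0.10 it would be, as 1 of 3 members and of 1.26% of all tested rows. Its log2 ratio of -1.75 ranked 5 from the lowest of the 10676 rows. Among tested rows with a mean of at least 5 FPKM, 4 had a change at least this large, and GPR4 was the only one of the 4 without a call. GPR132, another proton sensor, was higher in value in shETS1 without a call, at 3.28 and 4.27 FPKM (q = 0.977). GPR65, mainly a lymphocyte receptor, was untested at 0.0992 and 0.161 FPKM.

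The deposited locus of GPR4, chromosome 19 from 46031025 to 46105466 (hg19), is shared with OPA3, which encodes a mitochondrial protein. The locus is therefore not the extent of GPR4 alone. OPA3 was at 9.03 and 7.88 FPKM, a log2 ratio of -0.20 (p = 0.598 in the authors' deposited table). The gap between the groups was therefore much wider for GPR4 than for OPA3. No strand-marking step is described for these libraries, so where genes overlap on opposite strands their reads may be mixed.

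GPR4 and GPR3 are given beside endothelial markers. Of 9 such genes listed, 8 were found and 4 tested. All 4 tested were lower in value in shETS1, and CDH5, a cadherin that joins endothelial cells, was the 1 called, at 17.6 and 5.00 FPKM (q = 0.00964). The summed level of the 8 was 206 FPKM in shLuciferase and 141 FPKM in shETS1, mostly from TIE1 at 164 and 122 FPKM. ROBO4 was at 21.0 and 12.8 FPKM and ESAM at 2.42 and 1.06 FPKM, neither of them called. The untested markers were near 0. CLDN5 was at 0.295 and 0.271 FPKM, KDR at 0.0710 and 0.108 FPKM and VWF at 0.238 and 0.153 FPKM. EMCN was at 0.00343 FPKM in the control and listed at 0 in shETS1. Their part in the GPR4 and GPR3 results was not tested. In bulk RNA of this 1 cell line, fewer expressing cells and less RNA per cell cannot be told apart.

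**Figure D2:**
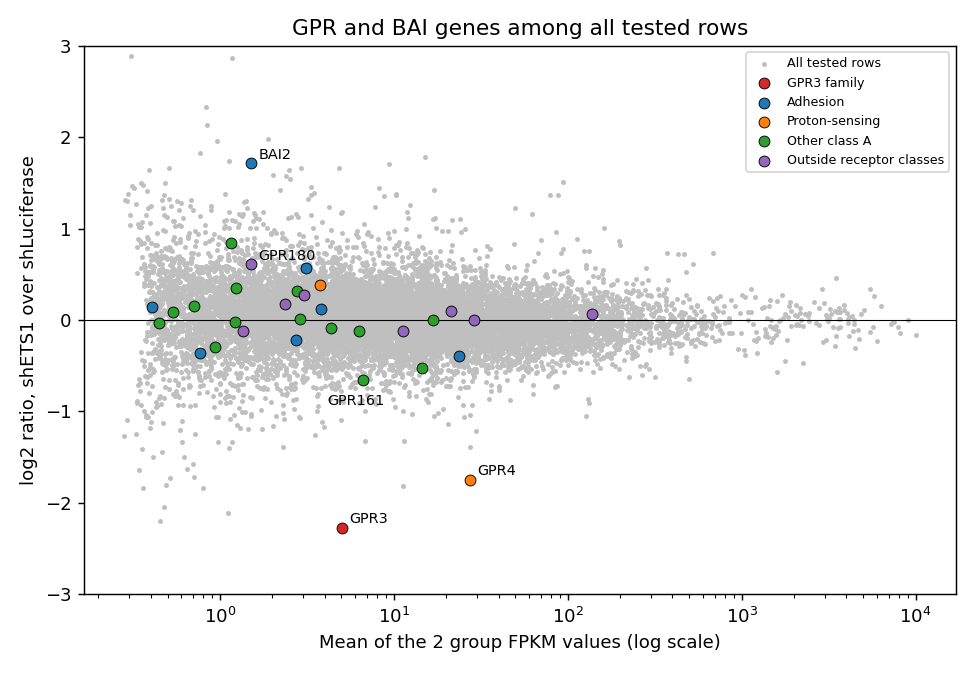
Log2 ratio of shETS1 over shLuciferase (vertical axis) against the mean of both group FPKM values (horizontal log axis) for all tested rows (grey) and 32 of the 34 tested members (coloured by role). GPR3 at -2.27 and GPR4 at -1.75 lie below the bulk of the rows at their levels, and BAI2 at 1.72 lies above it. Of 11951 tested rows with a finite ratio, 3 lie outside the axes.

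The largest class holds 46 rhodopsin-like receptors that are orphans or were later matched to a peptide or other ligand, and 14 of them were tested. None was called. GPR161, a receptor of the primary cilium that restrains Hedgehog signalling through cAMP, had the lowest p-value of the class. It was at 8.14 and 5.15 FPKM, 36.7% lower in shETS1 (p = 0.0212, q = 0.502 in the authors' deposited table). GPR162 was at 17.18 and 11.97 FPKM, but its locus is shared with LEPREL2, which was at 34.7 and 28.8 FPKM, and its p-value was 0.375. GPR176, a receptor of the circadian clock, was nearly level at 16.7 and 16.8 FPKM.

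The other tested receptors of this class had lower levels than these 3 in the control. GPR160 was at 6.55 and 6.01 FPKM, GPR153 at 4.48 and 4.21 FPKM, and GPR39, a zinc-sensing receptor, at 2.46 and 3.06 FPKM. GPR17, known from oligodendrocyte precursors, was at 2.87 and 2.89 FPKM. GPR1, a chemerin receptor, had the highest log2 ratio of the 14 tested, 0.85, at 0.826 and 1.48 FPKM (q = 0.925). GPR146, GPR173 and GPR63 were between 0.839 and 1.39 FPKM, and GPR75, GPR37 and GPR85 between 0.442 and 0.752 FPKM. The 10 members of the class with a mean of at least 1 FPKM had a median log2 ratio of -0.01, 5 above 0 and 5 below. Of the 46, 13 were listed at 0 in both groups.

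The members placed in the class of receptors for lipids and small metabolites were nearly absent from the measured range. Each member was placed in a single class, so others with such ligands may stand elsewhere. Of 10 found, 1 was tested, and it was not called. Lipid receptors with other names are outside this class, and S1PR1 among them was at 27.03 and 20.06 FPKM. GPR35 was at 0.354 and 0.158 FPKM and GPR84, a medium-chain fatty acid receptor of myeloid cells, at 0.173 and 0.146 FPKM, both untested. GPR183, which guides lymphocytes along oxysterols, was listed at 0 in shLuciferase and at 0.00567 FPKM in shETS1. None of the 3 class C receptors was tested, and GPR158 was listed at 0 in both groups.

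Proteins with a GPR name that are not typical receptors held the largest summed level of the 7 classes. GPR172A, now SLC52A2, is a riboflavin transporter. It was at 135 and 142 FPKM and made up 36.8% of the summed level of all 101 members in the control. GPR108 was at 29.03 and 28.97 FPKM. GPR137, a lysosomal membrane protein, was at 20.7 and 22.1 FPKM and GPR107, a protein of the Golgi and membrane trafficking, at 11.7 and 10.8 FPKM. GPR137B was at 2.75 and 3.32 FPKM, and GPR157 at 1.42 and 1.31 FPKM. GPR180 was 1.53-fold higher in shETS1, at 1.20 and 1.83 FPKM, with an unadjusted p of 0.0207 in the authors' deposited table, and was not called.

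None of the 8 tested members of this class was called, and their median log2 ratio was 0.08. The summed level of the class was 205 FPKM in shLuciferase and 214 FPKM in shETS1. Over all 101 members the sum was 367 and 330 FPKM, and without GPR172A it was 232 and 188 FPKM. The difference in the sums was mostly that of GPR4. GPR89A, a subunit of the Golgi pH regulator, was at 2.22 and 2.51 FPKM. The row GPR89B, a near-identical copy, has the same deposited locus and was at 0.134 and 0.0300 FPKM. The row GPR89C, whose current symbol is GPR89B, has that locus too and was listed at 0 in both groups. The division of reads among the 3 rows is therefore uncertain.

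Across roles, 28 tested members had a mean of at least 1 FPKM, 15 with a log2 ratio above 0 and 13 below. Their median log2 ratio was 0.01, and that of all 10676 such rows was 0.02. The groups were within 1.25-fold for 16 of the 28 (57.1%), against 75.5% of all such rows. More than a 2-fold difference was seen in 3 (10.7%), namely GPR3, GPR4 and BAI2, against 1.09% of all such rows. These shares too are descriptions, since results for GPR3 were known when the set was chosen. Adjacent levels in the order of abundance could not be compared beyond their spread, since each group has a single value per gene.

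**Figure D3:**
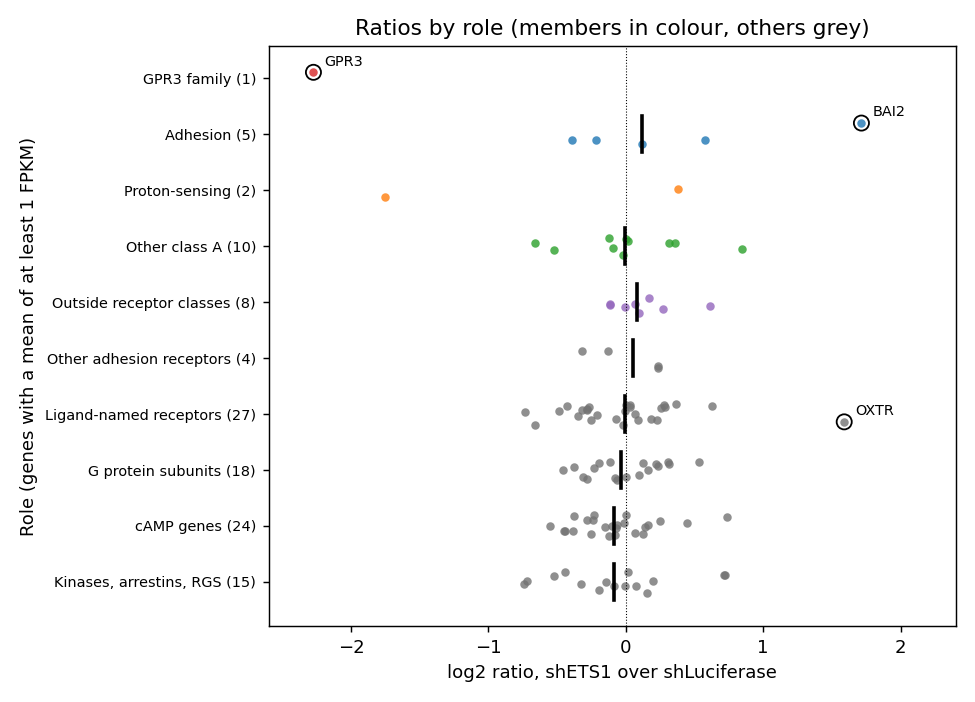
Log2 ratio of shETS1 over shLuciferase (horizontal axis) of each tested gene with a mean of at least 1 FPKM, by role, with members in colour and other genes of the pathway in grey. Genes not reported here are not drawn; vertical bars are medians of the genes drawn (for at least 3 genes), numbers in parentheses count them, vertical scatter within a row carries no value, and black rings mark the called genes GPR3, BAI2 and OXTR.

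Other genes that work with these receptors were read from lists of 5 kinds. Of 73 receptors named for a ligand, 36 were tested. OXTR, the oxytocin receptor, rose from 1.01 to 3.03 FPKM (p = 5e-05, q = 0.00964 in the authors' deposited table), and no other was called. Of all tested rows, 0.544% were called higher and 0.812% in either direction. The most abundant was S1PR1, a sphingosine 1-phosphate receptor, at 27.03 and 20.06 FPKM. The median log2 ratio of the list was -0.01 over 28 genes. The 6 tested adhesion receptors with other names had no call, which at that share says little about so few genes. The most abundant of them, CD97, was at 45.4 and 36.5 FPKM and LPHN2 at 4.27 and 5.04 FPKM.

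Downstream of the receptors no gene was called, where 0.812% of all 11952 tested rows were. At that share, the absence of calls in lists this short says little about them. Of 18 tested G protein subunits none had an unadjusted p under 0.05, and their median log2 ratio was -0.03. GNAS, the stimulatory subunit that GPR3 acts through, was at 741 and 709 FPKM, and the inhibitory subunit GNAI2 at 284 and 218 FPKM. Of 26 tested genes of cAMP production, breakdown and response, 16 of the 24 with a mean of at least 1 FPKM had a log2 ratio below 0, with a median of -0.09. PRKACA, the catalytic subunit of protein kinase A, was at 33.9 and 30.6 FPKM, and CRTC2, a coactivator of CREB, at 27.1 and 22.8 FPKM. One gene of the list, the phosphodiesterase PDE7A, had an unadjusted p under 0.05, at 1.35 and 2.25 FPKM (q = 0.365).

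Receptor kinases, arrestins and RGS proteins end a receptor's signal. Of 17 tested, none was called, and 5 had an unadjusted p under 0.05, 2 with higher and 3 with lower values in shETS1, where 6.94% of all tested rows had such a p. The receptor kinase GRK5 was at 5.54 and 3.32 FPKM (q = 0.240) and RGS20 at 7.82 and 12.9 FPKM (q = 0.202). The most abundant, RGS10 and RGS3, were at 257 and 232 FPKM and at 63.1 and 63.9 FPKM.

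The deposited loci of 29 members are identical to that of at least 1 other row, in 55 pairs, and none overlaps another row only in part. Of the 34 tested members, 11 share a locus, GPR4 among them, and neither called member does. In 28 of the 29 the other row had a level above 0. Such a locus spans all the genes in it, as with GPR75, which shares its locus with ASB3, CHAC2, ERLEC1 and the readthrough row GPR75-ASB3. GPR75-ASB3 was at 0.00857 and 0.552 FPKM with a p-value of 0.311, while GPR75 itself was at 0.677 and 0.752 FPKM.

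Several untested members shared their locus with an abundant gene and were themselves near 0. GPR21, inside the locus of RABGAP1 at 6.84 and 6.64 FPKM, was listed at 0 in both groups. GPR18 and GPR183 share a locus with UBAC2, which was at 34.9 and 37.1 FPKM. GPR62 shares one with PCBP4, at 25.6 and 20.5 FPKM, and was at 0.0295 and 0.0255 FPKM. Among tested members, GPR146 was at 1.09 and 1.39 FPKM beside C7orf50 at 105 and 98.4 FPKM, and its p-value was 0.861. None of the 15 tested rows that share a locus with a tested member was called, where 0.812% of all tested rows were. At that share, the absence of calls among so few rows says little about them.

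**Figure D4:**
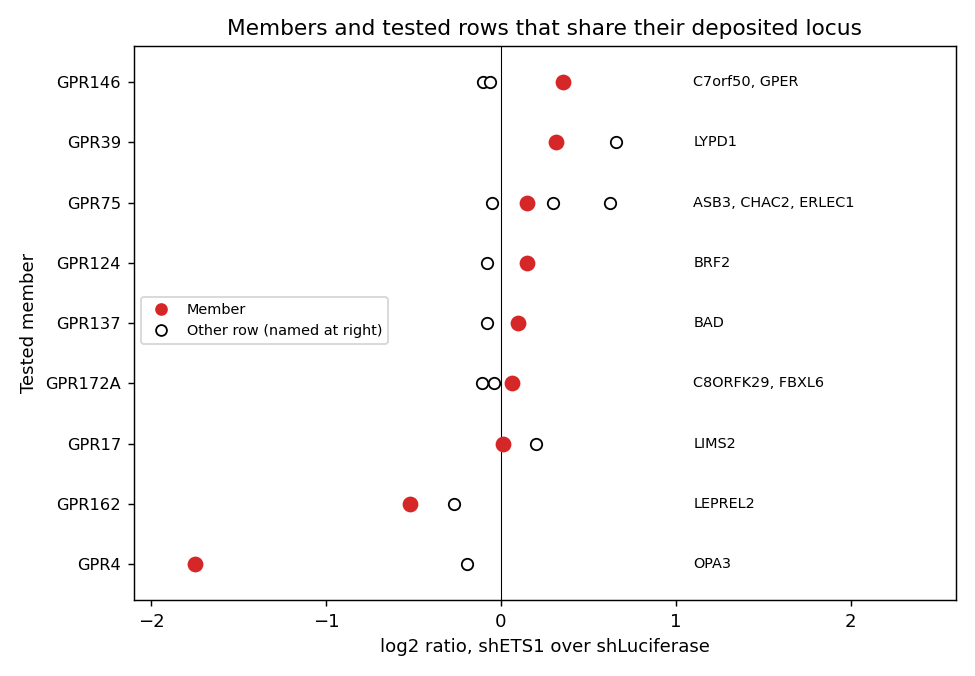
Log2 ratio of shETS1 over shLuciferase (horizontal axis) of tested members (red) and of the tested rows with the same deposited locus (open circles, named at right). GPR4 at -1.75 is far from OPA3 at -0.20, and the other members shown lie between -0.52 and 0.36. GPR75-ASB3, whose control level is near 0, and GPR89A, which has no tested partner, are not drawn, nor is 1 further member.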

How the data were processed

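Polyadenylated RNA of 3 shLuciferase and 3 shETS1 samples was sequenced. The tools named are Cufflinks 2.1.1, TopHat2 2.0.7, SAMtools 0.1.18 and Bowtie2 2.0.6, with the build hg19, per the submitters' processing notes. For the annotation and all settings, the entry is "not given in the sources used here". The authors deposited 1 FPKM value per gene and group, a log2 fold change, a score (the test statistic, unused), and a p-value and q-value per gene, in the layout of a Cuffdiff comparison, per the file headers. The deposited log2 column holds spreadsheet errors where a level is 0, so log2 ratios were recomputed from the FPKM values with Python 3.11.15 and pandas 2.3.3. The computations of the log2 ratio, the locus overlap and the GC trend were tested on simulated data.

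Levels are not counts and depth is unknown, so the test is the authors', over all tested rows. With 1 value per group, no test on samples was possible, so the fit planned on sample values was not made. Members, gene lists and thresholds were chosen with earlier results of these data known. The text names called members, those with an unadjusted p under 0.05 and at least 1 FPKM, the GPR3 trio, the 20 most abundant members, the 2 most abundant genes of each list, called genes of other lists, and members sharing a locus, the last by selected examples; further members were named after their values were seen. A few genes that the rule covers are not reported here. Overlap means at least 1 shared base; 1 was added to deposited starts. GC content came from the GENCODE 29 transcript with the longest coding sequence, by symbol, and its trend was a cubic fit.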

Additional observations from a re-analysis of the deposited data

How the results depend on the processing

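Members called numbered 2 at a q-value of at most 0.05, 2 at 0.01 and 3 at 0.10 (with GPR4). In the authors' deposited test both called members had p = 5e-05, the smallest p-value of any tested row, which 62 called rows had. The count was 2 when the higher level had to reach 1 FPKM, and 2 without members that share a locus. Both called members reach that level and share no locus, so these last settings could not change the count. The median log2 ratio of tested members went from 0.01 to -0.12 over the 11 whose mean reached 5 FPKM, and was 0.10 with the GC trend removed, -0.0029 without shared loci and -0.01 centred on all tested rows; the cause was not tested. With 0.5 FPKM as the level, 32 members were counted in each group. With 1 FPKM added the log2 ratio of GPR3 was -1.78, and with the GC trend removed it was -2.16, that of GPR4 -1.64 and that of BAI2 1.88. Transcript GC was found for 100 members. Among tested rows with a mean of at least 1 FPKM, its median was 56.1% in members and 48.8% in all rows. Removing the GC trend moved the log2 ratio of 24 tested members by more than 0.1, and adding 1 FPKM moved that of 10. Of the 34 tested members, 5 changed sign, none of them called: GPR108, GPR153 and GPR173 went from -0.0029, -0.09 and -0.02 to 0.13, 0.08 and 0.08 with the GC trend removed, and GPR176 and GPR17 from 0.0043 and 0.01 to -0.01 and -0.0020 when centred. Leaving out replicates was not run. No paired analysis was possible because the table gives 1 value per group. Depth is unknown, so no detection limit can be given for members listed at 0.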
